A study of Mus musculus with 3 samples.

Results

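The 9 genes described here encode the DNA-binding factors and coactivators through which MAP kinase, actin and cyclic AMP signals reach the immediate early genes. They are Srf, the ternary complex factors Elk1, Elk3 and Elk4, the actin-sensing coactivators Mkl1 and Mkl2, and the Creb family members Creb1, Crem and Atf1. They were taken by symbol from the 55536 annotated genes of each library's gene table, and all 9 were found, each with 1 identifier. Mkl1 and Mkl2 are entered there as Mrtfa and Mrtfb, the names used below. Of all annotated genes, 15876 had a mean count of at least 10 and are called measured, and all 9 factors were among them.

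The libraries were made from ribosomal RNA-depleted total RNA of the nuclear fraction of bone marrow-derived macrophages of C57BL/6J mice, which the description of the samples calls the nucleoplasmic fraction. All cells had been given 100 ng/ml Lipid A, the part of lipopolysaccharide that Toll-like receptor 4 recognises, for 15 min. There was 1 group of 3 biological replicates and no untreated sample among those analysed, so whether a factor was present before Lipid A could not be examined, and nothing below is a response to it. Sex and age were not collected, and the labels give separate biosamples with the same donor entry, so the spread between replicates may be in part technical. The starting quantity was 500 ng of RNA for replicate 2 and 1 µg for replicates 1 and 3.

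The libraries held 18516063, 17345644 and 20947006 expected counts on annotated genes in replicates 1, 2 and 3. The labelled cell type was checked by marker genes. All 8 macrophage markers, led by Lyz2 and Csf1r, had a mean of at least 10 TPM, the length-corrected share of a library's transcripts, with a median over the list of 213 ± 18.6 TPM (SD, n = 3). No gene of the T cell, B cell, neutrophil, dendritic cell, fibroblast and endothelial lists reached 10 TPM. The largest of their summed levels was 4.93 TPM, that of the 5 endothelial markers in replicate 3, most of it from Kdr, and Cd3e, Cd2, Ly6g and Pdgfra were at 0 counts in every library. In bulk RNA, fewer cells of a type and less RNA per cell cannot be told apart.

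Srf is a MADS-box protein that binds the CArG box, the core of the serum response element. At early response genes it recruits a ternary complex factor, an Ets protein that ERK and related kinases phosphorylate. At cytoskeletal genes it recruits Mrtfa or Mrtfb, which monomeric actin holds back until actin polymerises. Creb1, Crem and Atf1 are leucine zipper proteins that bind the cyclic AMP response element and are activated by phosphorylation, by protein kinase A or by MSK kinases downstream of p38 and ERK. Because these proteins are switched by phosphorylation or by actin, an RNA level says how much template for them was being made or kept in the nucleus, not how active they were.

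Srf, the DNA-binding partner shared by both arms, had the lowest mean level of the 9 in the gene tables, 5.73 ± 2.43 TPM (SD, n = 3). TPM is a level per length of transcript and can be compared between genes. Srf (chr17:46548329-46556175, minus strand, mm10) was at 8.37 TPM in replicate 1, 3.59 in replicate 2 and 5.22 in replicate 3. Replicate 2 was thus the low library. In the second quantification, made by another method and on its own TPM scale, Srf was at 5.04 TPM on average and was not the lowest, since Elk1 was at 4.91 TPM and Elk3 at 3.52 TPM. Srf is itself known as an inducible gene whose promoter carries binding sites for its own protein. Its promoter is shown because it was the only factor with a CArG box in the window searched, and the stretch runs from 210 to 41 bases before the transcript start (chr17:46556203-46556372, minus strand, RefSeq, GRCm38.p6), 5′ to 3′, with motif matches in capitals.
Srf promoter: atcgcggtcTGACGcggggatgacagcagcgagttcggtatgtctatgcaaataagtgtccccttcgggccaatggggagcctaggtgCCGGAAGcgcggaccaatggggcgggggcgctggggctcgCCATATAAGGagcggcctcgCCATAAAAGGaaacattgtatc

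The last pair of capitals are CArG boxes, with first bases 82 and 62 bases before the start. The Ets core CCGGAAG lies upstream of them, with its first base at -122, and TGACG, the core of the cyclic AMP response element, begins at -201. Windows of 300 bases around transcript starts, from 250 bases before the start, were matched by symbol for 8 of the 9 factors, with 1 to 3 starts a gene, and searched on both strands. No entry was matched for Crem. Over all 32851 RefSeq windows, 1.63% held a CArG box, 8.86% CCGGAAG, 3.89% its longer form CCGGAAGT, 20.8% TGACG and 1.79% the full palindrome TGACGTCA. A match is a description of the letters and not a site of binding.

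Among the other factors, only Elk4 had an Ets core, at the first of its 3 starts. The stretch from 110 to 41 bases before that start (chr1:132007510-132007579, plus strand, GRCm38.p6) is shown because the long form CCGGAAGT and TGACG run into each other in it.
Elk4 promoter: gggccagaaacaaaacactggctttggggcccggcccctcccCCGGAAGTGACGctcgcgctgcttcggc

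The Ets match begins at -68 and TGACG at -61, so that they share a single T. TGACG also stood at start 3 of Mrtfb, at -138 on the opposite strand, and in the window of Atf1, at -90. No match to any of these motifs was found in the windows of Elk1, Elk3, Mrtfa and Creb1, and none of the 8 factors held TGACGTCA.

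**Figure D1:**
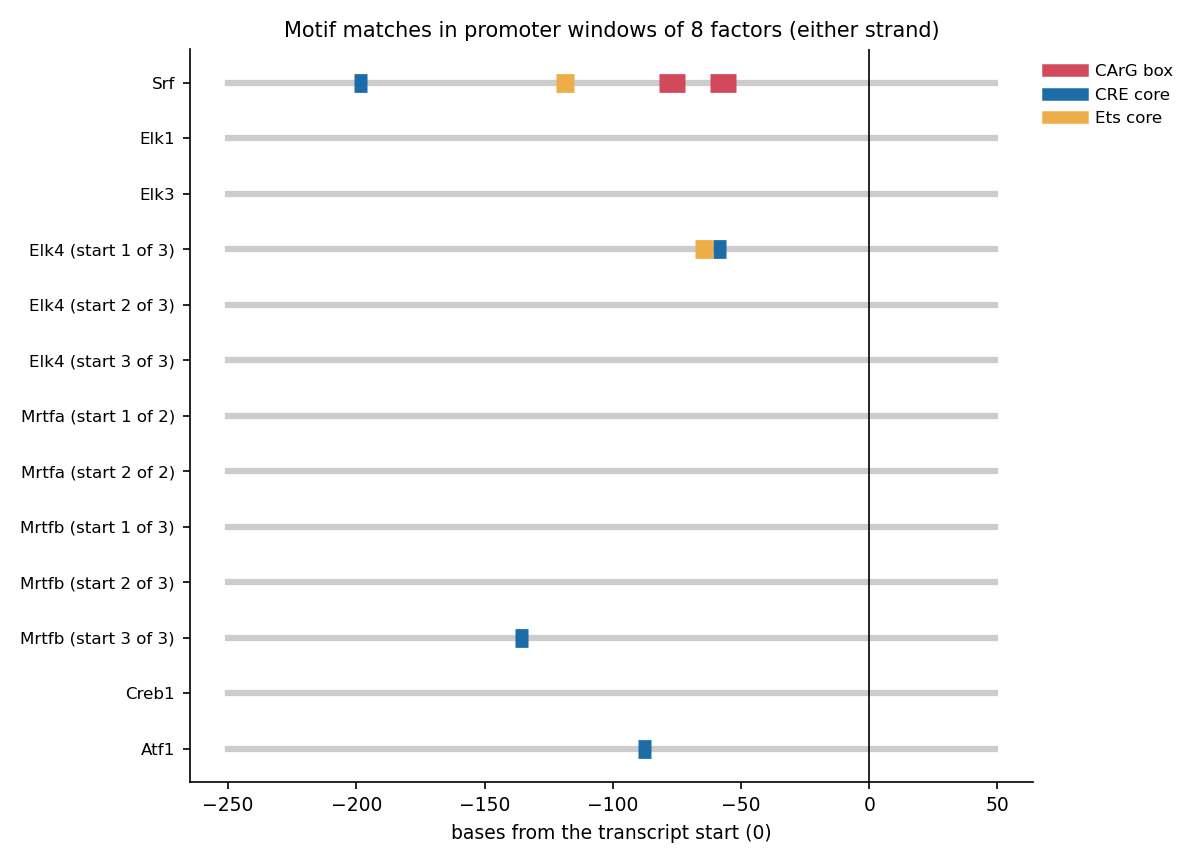
Matches to the CArG box (red), to TGACG, the core of the cyclic AMP response element (blue), and to the Ets core CCGGAAG (yellow) in the RefSeq windows of 8 factors, by distance in bases from the transcript start, with 1 row for each start. Srf alone shows CArG boxes, 2 of them, and the first start of Elk4 shows an Ets core that touches TGACG.

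The ternary complex factors spanned a range of levels. Elk4, also known as SAP-1 (chr1:132007607-132032612, plus strand), was at 19.6, 27.1 and 20.2 TPM in replicates 1, 2 and 3. Elk1 (chrX:20933395-20950608, minus strand), the ternary complex factor best known as an ERK substrate, was at 11.1, 13.4 and 8.76 TPM. Elk3, also known as Net and described as a repressor until it is phosphorylated (chr10:93247414-93311135, minus strand), was at 11.0, 7.05 and 4.33 TPM. Elk4 was the highest of the 3 in every library. Elk3 was below Elk1 in every library, by little in replicate 1, where the second quantification put Elk3 at 5.36 TPM and Elk1 at 4.96 TPM.

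Mrtfa had the highest mean level of the 9, 30.1 ± 6.46 TPM (SD, n = 3). Its values (chr15:81012281-81190757, minus strand) were 23.1, 31.2 and 35.9 TPM in replicates 1, 2 and 3. Mrtfb (chr16:13256481-13417529, plus strand) was at 13.6, 15.5 and 9.18 TPM. By this gene TPM Mrtfa was above Mrtfb in every library, and Mrtfb ranked 4 among the 9 in each. Over protein-coding transcripts alone the order was reversed in replicate 1, with Mrtfa at 10.1 and Mrtfb at 13.6 TPM. Myocd, the founding member of their family and known for its role in heart and smooth muscle, was at 0 counts in all 3 libraries. A count of 0 allows up to 0.162, 0.173 and 0.143 CPM (counts scaled to the size of the library) in replicates 1, 2 and 3, from counting error only.

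Creb1 (chr1:64532645-64604548, plus strand) was at 25.1, 28.2 and 14.7 TPM in replicates 1, 2 and 3. Atf1 (chr15:100227819-100261244, plus strand), its close relative and dimer partner, was at 12.2, 11.1 and 8.82 TPM. Crem, on chromosome 18, was at 5.37, 8.46 and 5.34 TPM. By gene TPM Creb1 was the highest and Crem the lowest of these 3 in every library. Over protein-coding transcripts alone Creb1 was below Atf1 in replicate 1 (7.40 against 10.2 TPM) and replicate 3 (5.65 against 7.79 TPM). In replicate 2 it stayed above (9.60 against 8.72 TPM).

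By mean TPM the order was Mrtfa, Creb1, Elk4, Mrtfb, Elk1, Atf1, Elk3, Crem and Srf, and the top mean was 5.25 times the bottom one. Of the 8 pairs of neighbours in that order, 3 kept the sign of their difference in all libraries: Elk4 over Mrtfb, by 0.82 ± 0.30 (SD, n = 3) on the log2(TPM + 0.1) scale, Mrtfb over Elk1, by 0.19 ± 0.12, and Atf1 over Elk3, by 0.60 ± 0.43. Each of these had p = 0.25 in the two-sided exact sign-flip permutation test over libraries, which is the smallest p that 3 libraries allow, and 0.667 after Benjamini-Hochberg adjustment over the 8 pairs. Over coding transcripts alone Elk4 over Mrtfb was 0.066 and no longer of the same sign in every library. The other 5 pairs changed sign between libraries. Creb1 and Elk4 differed by -0.01 ± 0.41 on that scale, so that their places were not separated beyond the spread. Nor were the pair of Crem and Srf at the bottom (0.21 ± 0.93). Elk4 was above Creb1 in every library in the second quantification (Creb1 over Elk4 -0.47) and over coding transcripts alone (-0.82).

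**Figure D2:**
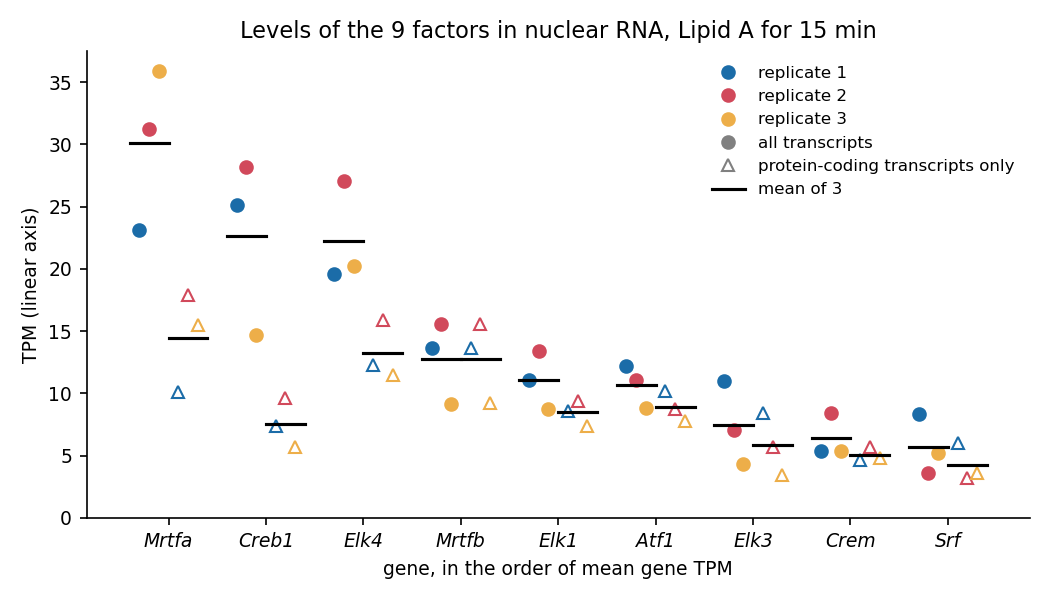
TPM of each factor (linear axis) in the 3 libraries, coloured by replicate, with filled circles for all transcripts of the gene, open triangles for its protein-coding transcripts only, and lines for the means. Creb1 drops from a mean of 22.7 TPM over all transcripts to 7.55 over coding ones, whereas Mrtfb stays at 12.8.

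Set among all measured genes, these were moderate levels. The median factor stood at 11.5 ± 2.38 TPM (SD, n = 3), beside 4.81 ± 0.898 TPM for the median measured gene and 6.70 ± 1.07 TPM for the median of 11960 measured protein-coding genes. A mean of at least 10 TPM was reached by 6 of the 9 factors (Mrtfa, Creb1, Elk4, Mrtfb, Elk1 and Atf1) and by 31.5% of measured genes. In TPM, all levels depend on what else is in the library: protein-coding genes held 27.6%, 35.6% and 21.3% of TPM in replicates 1, 2 and 3, and 6 of the 9 factors were at their lowest TPM in replicate 3, where that share was lowest.

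The MADS, Ets and Creb families had relatives at higher levels. Of 4 MADS relatives, Mef2a (64.2 ± 26.5 TPM), Mef2c (55.5 ± 18.0 TPM) and Mef2d were above 10 TPM and above Srf, and Mef2b was at 0.0267 TPM. Of 15 Ets relatives 7 reached 10 TPM, led by Etv3 (43.5 ± 3.91 TPM) and Elf2 (32.4 ± 5.98 TPM), with the endothelial factor Erg the lowest at 0.00667 TPM. Of 12 Creb and Atf relatives 8 did so, led by Atf4, the factor of the integrated stress response (53.7 ± 8.25 TPM), and Crebzf (34.4 ± 6.69 TPM), with Creb3l1 the lowest at 0.237 TPM. Each of the leading relatives therefore had a higher mean than the factor of its family described here with the highest mean.

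The signalling arms that act on the factors were present as nuclear RNA. In the ERK and MSK arm 9 of 12 genes reached 10 TPM, led by Map3k8, the kinase known as Tpl2 that links Toll-like receptors to ERK (40.6 ± 13.3 TPM). The lowest of that list was Rps6ka5, which encodes MSK1, a Creb kinase, at 2.37 ± 0.711 TPM. Another list held protein kinase A subunits, the calcium/calmodulin-dependent kinases Camk2d and Camk4, Creb coactivators and Sik kinases. Of its genes 8 of 14 reached 10 TPM, led by Camk2d (52.8 ± 28.7 TPM) and the acetyltransferase Ep300 (38.5 ± 9.97 TPM), and Camk4 was lowest at 0.0267 TPM.

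Among the genes these factors are known to act on, levels ranged widely. Of 11 early targets of Elk and Srf 9 reached 10 TPM, led by Fos (274 ± 41.1 TPM) and Mcl1 (241 ± 16.0 TPM), and Egr4 was at 0 counts. Of 13 cytoskeletal targets of Mrtf and Srf 8 did so, led by Tln1 (143 ± 36.8 TPM) and Flna (106 ± 42.0 TPM), and Myl9 was at 0 counts. Of 12 Creb targets 5 did so, led by Dusp1 (163 ± 17.5 TPM) and Nr4a1 (86.1 ± 56.7 TPM), with Areg the lowest at 0.0333 TPM. Of 10 AP-1 subunits 7 did so, led by Fos and Junb (229 ± 37.5 TPM). The lists share genes: Nr4a1 and Fosb are counted in both the Elk and Srf list and the Creb list, and Fos, Fosb and Junb in both the Elk and Srf list and the AP-1 list.

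Libraries were compared on counts, as CPM scaled by TMM factors, which do not move with gene length or with very short RNAs. A gene was counted as deviating in a library where its CPM was at least 1.5-fold above, or below, both other libraries. The factors that did not deviate in any library are given first, and the shares of all measured genes that deviated follow below. Shares of genes with a smaller SD are taken over all measured genes and are not matched for count. Genes with fewer counts carry more counting error in that SD. Elk1 was at 43.0, 46.5 and 46.2 CPM in replicates 1, 2 and 3, and only 3.06% of measured genes had a smaller SD of log2 CPM. Mrtfb was at 92.2, 84.9 and 82.1 CPM, with 6.00% of genes below its SD. Atf1 was at 24.2, 20.1 and 23.4 CPM, with 15.4% of genes below its SD. The highest of the 3 libraries exceeded the lowest by 1.08 times for Elk1, 1.12 times for Mrtfb and 1.20 times for Atf1.

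Elk4 (72.8, 88.0 and 92.6 CPM) and Creb1 (101, 112 and 82.9 CPM) varied by 1.27 and 1.35 times between their highest and lowest libraries. Crem, at 9.67, 15.4 and 12.7 CPM, varied by 1.59 times and was lowest in replicate 1, without passing 1.5-fold against both others. The median SD of log2 CPM over the 9 factors was 0.22, beside 0.32 over all measured genes, and 4 of the 9 were above the latter. This comparison was not matched for count either.

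The other 3 factors each deviated in 1 library. Srf was at 19.6, 9.18 and 15.9 CPM in replicates 1, 2 and 3, from 387, 162 and 306 counts, so that replicate 2 was 0.93 below the mean of the others on the log2 scale, or 0.523 times it. The exact Poisson 95% interval of the replicate 2 value, 7.82 to 10.7 CPM, did not reach those of replicate 1 (17.7 to 21.6 CPM) and replicate 3 (14.1 to 17.7 CPM); such intervals cover counting error only. Mrtfa was at 59.3, 90.4 and 118 CPM, with replicate 1 lowest, at a log2 difference of -0.80 from the others. Elk3 was at 43.5, 28.0 and 22.5 CPM, with replicate 1 highest, 0.79 above the others on the log2 scale. Each of these 3 deviations kept its direction and stayed within 0.14 on the log2 scale under other scaling factors, without the filter on low counts and in the second quantification, although in the last and with total counts as scaling Mrtfa no longer passed 1.5-fold against both other libraries.

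These counts were near those of all genes. In replicate 1, 10.4% of measured genes were above both other libraries and 8.46% below, and of the factors 1 was above (Elk3) and 1 below (Mrtfa). In replicate 2, 3.99% were above and 6.25% below, and of the factors 0 were above and 1 below (Srf). In replicate 3, 4.89% were above and 5.74% below, and of the factors 0 were above and 0 below. No result about the factors as a set is read from these counts.

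The early targets of Elk and Srf had larger deviations than the factors. In replicate 3, 8 of the 10 measured targets were above both other libraries, beside the 4.89% of all measured genes, and the median target was 3.16 times the mean of the others, beside 0.997 times for the median measured gene. The pair that did not pass were Fos, at 459, 494 and 730 CPM in replicates 1, 2 and 3, and Mcl1, at 915, 959 and 1330 CPM, which were highest in replicate 3 as well. In the same library the median factor was 1.04 times the others. Other lists were high there too: 7 of 9 measured AP-1 subunits were above both other libraries, with a median of 1.96 times the others. For the macrophage markers these values were 2 of 8 and 1.40 times. Whether the libraries differed more in the targets than in the factors was not tested, and 5 in place of 8 targets passed when total counts were used as scaling.

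In replicate 2, where Srf was low, the median early target was 0.602 times the others, beside 1.00 times for the median measured gene. Of the 10 early targets, 9 were below the mean of the other libraries. Below both other libraries by 1.5-fold were 3 of the 10, beside 6.25% of all measured genes: Egr1, at 490, 98.5 and 780 CPM in replicates 1, 2 and 3, Egr2, at 52.4, 14.5 and 104 CPM, and Ier2, at 212, 79.3 and 366 CPM. These genes are named because they passed, so the choice was made after their values were seen. Their deviations in replicate 2 on the log2 scale were -2.65, -2.34 and -1.81, beside -0.93 for Srf. Fos, at 494 CPM in replicate 2, was not below both others by 1.5-fold, and Fosb, the exception among the 10, was at 125 CPM there and at 35.7 CPM in replicate 1. Other lists were low in replicate 2 too. The median AP-1 subunit was 0.801 times the others, with 8 of 9 below their mean. For the macrophage markers these values were 0.868 times and 6 of 8. The share of all measured genes below that mean was not counted. Replicate 2 was the library of 500 ng, and the part of the starting quantity in these values was not tested.

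Egr2 was also the only one of the 8 early targets matched in the promoter table with a CArG box in a window. No entry was matched for Egr1, Egr3 and Ier2, so these were not searched. A box more than 250 bases before a start would not be seen, so a gene without a match may still have one. It has 5 annotated starts, and a CArG box stands 72 bases before start 2 and another 72, 73 and 133 bases before starts 3, 4 and 5, which are neighbouring starts that see the same box. The boxes are shown, in capitals with 8 flanking bases on each side, to be set beside those of Srf (chr10:67537486-67537511 and chr10:67537789-67537814, plus strand, GRCm38.p6).
Egr2 box at start 2: gatcttctCCTTTTTTGGaaagtctc
Egr2 box at starts 3 to 5: tcctcagtCCATATATGGgcagcgac

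TGACG stood in at least 1 window of all 8 matched early targets and all 9 matched Creb targets, beside 4 of the 8 factors and 23.1% of all 27025 symbols in the table. Counted by window, 10 of 12, 10 of 13 and 4 of 13 held it, beside 20.8% of all windows. The Creb list was made of genes known to respond through such elements, so its share is a description of the list. The early targets were listed as targets of Elk and Srf, and why all 8 matched ones held TGACG was not tested.

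The Creb targets showed another order of libraries. In replicate 1, 6 of 10 measured targets were below both other libraries, beside 8.46% of all genes, and in replicate 3, 8 of 10 were above both, beside 4.89%. Among the 6, Nr4a3 and Gem rest on few counts, with 5 and 11 in replicate 1. Nr4a1 and Fosb, which are in both target lists, are among the 8 of each, so these counts are not separate. Sik1, a kinase induced by cyclic AMP, was at 19.1, 40.8 and 64.0 CPM in replicates 1, 2 and 3. Dusp1, the MAP kinase phosphatase, was at 318, 229 and 432 CPM and did not pass in any library. None of the 3 Creb family factors followed this order in full. Crem was lowest in replicate 1 but in the middle in replicate 3. Creb1 was in the middle in replicate 1 and lowest in replicate 3. Atf1 was highest in replicate 1 and in the middle in replicate 3. Of the cytoskeletal targets of Mrtf and Srf, 0 of 12 were below both others and 0 above in replicate 1, where Mrtfa was low. The shares of all measured genes there were 8.46% and 10.4%. The median cytoskeletal target in replicate 1 was 1.17 times the others. In replicate 2, where Srf was low, the median cytoskeletal target was 0.778 times the others, beside 1.00 times for the median measured gene. Of the 12 cytoskeletal targets, 9 were below the mean of the others. Only Myh9, which encodes a nonmuscle myosin, passed below both, at 547, 329 and 517 CPM in replicates 1, 2 and 3. That is 1 of 12, beside 6.25% of all measured genes. Acta2 passed above both in replicate 2, at 0.759, 1.93 and 0.570 CPM, from few counts, beside 3.99% of all measured genes. No result about the cytoskeletal targets as a set is read from these counts.

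**Figure D3:**
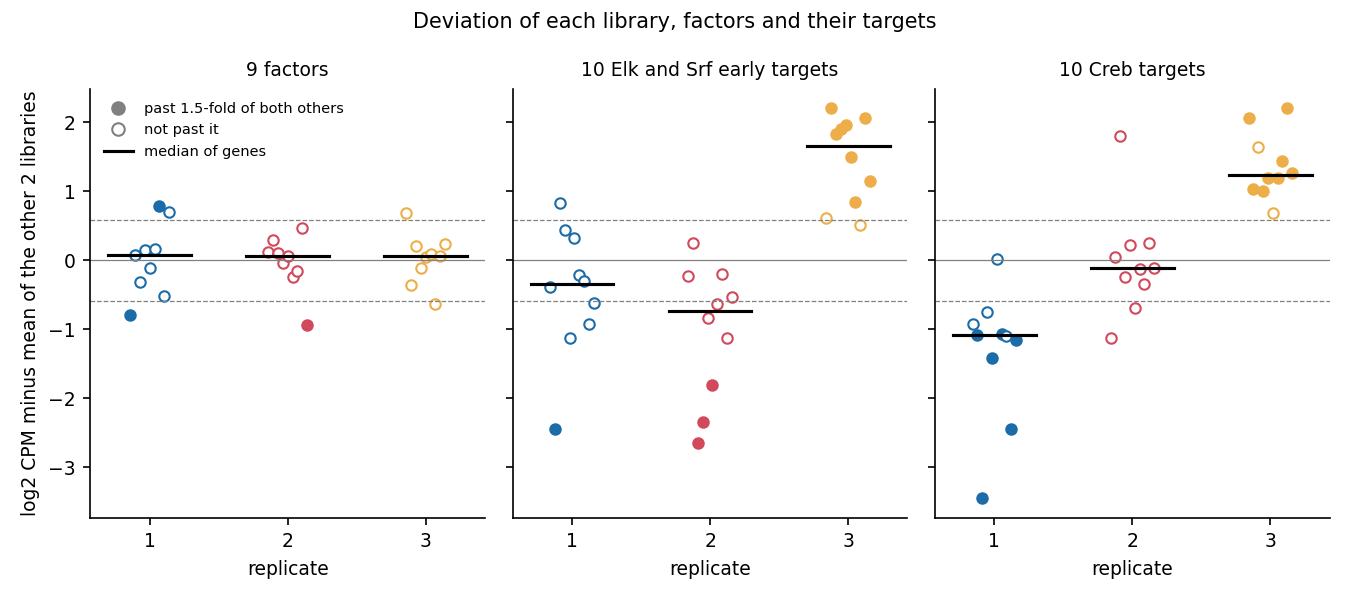
Difference of log2 CPM in each library from the mean of the other 2, for the 9 factors, 10 early targets of Elk and Srf and 10 Creb targets. Points are genes, filled where they passed 1.5-fold (dashed lines) against both other libraries, and black lines are medians; in replicate 3, 0 of 9 factors and 8 of 10 genes of each target list passed.

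Patterns over 3 libraries are shared by many genes, so the gene most like each factor is given as a description only. By the root mean square difference of log2 CPM over the 3 libraries, the nearest protein-coding gene was Trim47 for Srf (0.06), Ndel1 for Elk1 (0.02), Mrps10 for Elk3 (0.03), D17Wsu92e for Elk4 (0.03), Khnyn for Mrtfa (0.04), Pcbp2 for Mrtfb (0.02), Ap1s2 for Creb1 (0.05), Eapp for Crem (0.05) and Asb6 for Atf1 (0.02). Within 0.1 of Elk1 lay 44 genes, whereas within 0.1 of Srf lay 2.

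What the gene levels were made of differed between the factors. A retained-intron transcript is an annotated, non-coding form in which an intron stays in the RNA, and 7 of the 9 factors have at least 1; Elk4 and Mrtfb have none. TPM divides by length, so a short transcript weighs more in TPM than in counts. Nuclear RNA includes RNA that is not yet spliced, and how much of the reads in these transcripts came from it was not tested. In the first quantification Creb1 showed the largest share, with 61.5 ± 5.37% of its TPM (SD, n = 3) but 25.2 ± 2.82% of its expected counts in 3 retained-intron transcripts. In the second, the shares of TPM were 70.6 ± 3.32% for Mrtfa, 64.9 ± 7.08% for Srf and 60.3 ± 5.51% for Creb1. Of the TPM of Creb1 in the first, 26.0 ± 3.12% was given to Creb1-206, a single exon of 1642 bases (chr1:64560925-64562566) that lies wholly in intron 3 of Creb1-202. Creb1-211, a single exon of 2763 bases (chr1:64576388-64579150) that lies wholly in intron 7, had 14.1%. Creb1-208, which runs into intron 3 and is 660 bases long, had 21.3 ± 2.37% of TPM and 2.90% of counts.

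The main coding form, Creb1-202, of 8364 bases and 8 exons, held 70.7% of the gene's counts and 28.6 ± 2.56% of its TPM. Its level was 6.45, 8.52 and 4.41 TPM in replicates 1, 2 and 3. Counted over coding transcripts alone, Creb1 was at 7.40, 9.60 and 5.65 TPM and moved from the second place of the 9 to the sixth. Mrtfa, Elk4 and Mrtfb then led, at 14.5 ± 3.99, 13.2 ± 2.35 and 12.8 ± 3.25 TPM (SD, n = 3), and 3 of the 9 factors reached a mean of 10 TPM in place of 6. Srf was lowest in that order too, at 4.27 ± 1.52 TPM.

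In the first quantification Mrtfa was the other factor with most of its TPM outside coding forms, 52.0 ± 7.97% in 5 retained-intron transcripts of 499 to 849 bases, which held 11.1 ± 3.49% of its counts. In the second quantification coding forms held less of the TPM of 4 factors than other forms did, with 29.4% for Mrtfa, 29.6% for Creb1, 32.5% for Elk4 and 35.1% for Srf. The coding form of Mrtfa with the highest mean count, Mrtfa-201 (chr15:81012291-81105083, minus strand), was at 4.21, 11.8 and 11.9 TPM in replicates 1, 2 and 3. Replicate 1 was low in this form, as it was in the gene's CPM. Mrtfa-209, another coding form, ran the other way, at 589, 503 and 398 counts in replicates 1, 2 and 3. In replicate 1 it held 50.2% of counts, beside 35.8% for Mrtfa-201. The division between these forms depended on the method: the second quantification gave Mrtfa-209 11.6%, 0% and 6.79% of counts. Mrtfb had coding transcripts only, led in the first quantification by Mrtfb-204 (chr16:13358421-13417529), with 47.4 ± 5.66% of TPM and 75.1% of counts. Both Mrtfa-201 and Mrtfb-204 begin far inside the gene, at or near the last of the RefSeq starts in the promoter table. Mrtfb-203, a short coding form of 667 bases, had 20.1 ± 9.16% of TPM on 1.84% of counts in the first quantification. The deposited credibility interval of its TPM in replicate 1 ran from 0.000472 to 3.62, so its level was poorly determined. In the second quantification it held 53.1 ± 6.47% of TPM, ahead of Mrtfb-204 at 26.3 ± 3.61%. By counts Mrtfb-204 led there too, with 69.8%.

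In the first quantification Elk4 stood apart in another type. Elk4-207, annotated as a target of nonsense-mediated decay, held 35.3 ± 1.58% of its TPM and 23.9% of its counts. It was at 6.81, 9.19 and 7.48 TPM in replicates 1, 2 and 3. In the second, 49.6 ± 4.32% of TPM went to 3 forms annotated as processed transcripts. Elk4-207 held 17.9 ± 2.42% of TPM there, but 23.0% of counts. It shares 1058 of its 2107 bases with exons of the main coding form Elk4-202, which held 46.1 ± 2.89% of TPM in the first quantification. Its other 1049 bases lie past the end of that form, and 84 of its bases overlap exons of Mfsd4a on the opposite strand. Whether the counting used strand is not given in the sources used here, so reads from these bases cannot be assigned to Elk4 or to Mfsd4a, which was at 15.2 TPM. The same holds for 316 exon bases that Elk3 shares with Cdk17, 6.95% of its exons, and for 472 that Crem shares with Gm6225, 8.01%.

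For Elk1, Elk3, Srf and Atf1 the main coding transcript led in TPM and counts of the first quantification. Elk1-201 held 77.4 ± 7.32% of TPM and Elk1-202, a retained-intron form reaching into intron 2, the other 22.6%. Elk3-201 held 75.2 ± 5.01%, Elk3-203, a retained-intron form, 20.9 ± 2.34%, Srf-201 held 76.6 ± 10.4% and Atf1-201 68.3 ± 0.212%. In the second quantification the share of TPM was 28.6 ± 0.852% for Atf1-201, beside 29.4 ± 7.03% for the retained-intron form Atf1-205, and 35.1 ± 7.08% for Srf-201, which in replicate 2 was behind Srf-203 and Srf-204. Of Srf's counts 5.03 ± 2.59% went to retained-intron forms in the first quantification and 24.8 ± 5.02% in the second, so that this share depended on the method. Srf-201, the main coding form, was at 6.01, 3.18 and 3.63 TPM in replicates 1, 2 and 3. TPM moves with what else is in a library, so the closeness of replicates 2 and 3 is not read as a result. Coding forms held 94.1%, 97.9% and 93.0% of Srf's 387, 162 and 306 counts. By counts, replicate 2 was thus low in coding forms as well.

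Over 7094 measured protein-coding genes with a retained-intron transcript, the median share of counts in such transcripts was 18.9%, and the median of the 7 factors was 5.03%. In that quantification Creb1 alone of the 7 was above the median of all genes, with 59.0% of genes below it. In the second, the share of counts was above the median of 23.4% for Creb1 (27.6%), Srf (24.8%) and Mrtfa (23.8%). By share of TPM in the first the medians were 31.5% and 22.6%, with Creb1 and Mrtfa above the upper quartile of all genes, 47.2%.

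**Figure D4:**
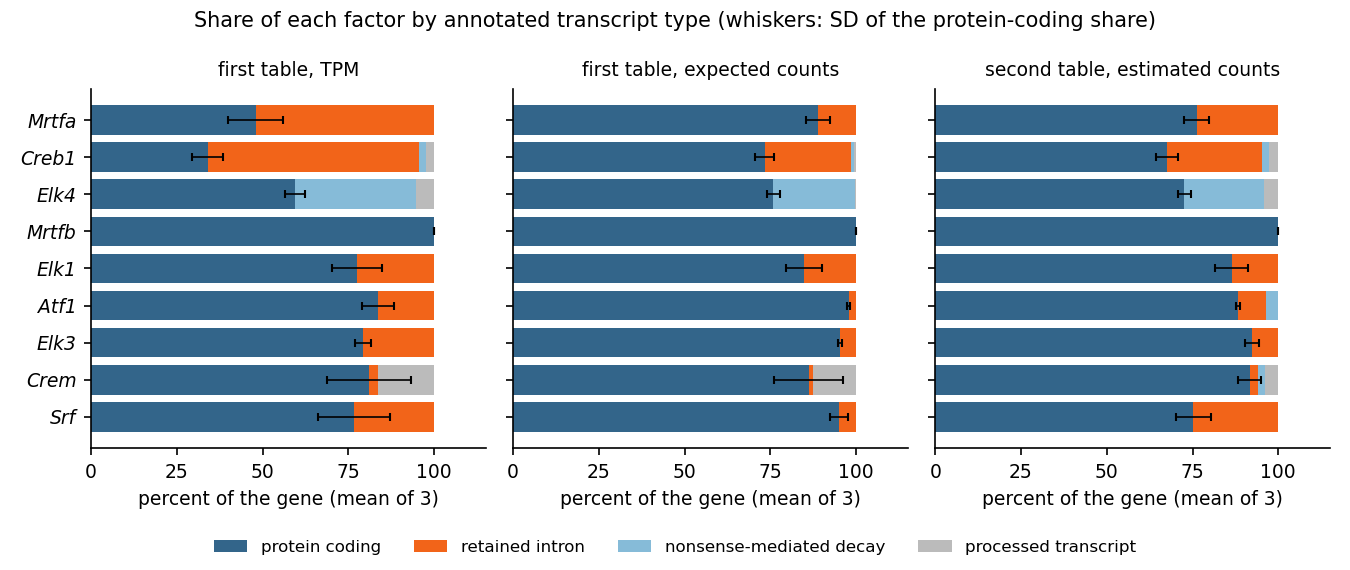
Percent of each factor's TPM (left), expected counts (middle) and estimated counts of the second quantification (right) by annotated transcript type, as means of 3 libraries, with whiskers for the SD of the protein-coding share. The retained-intron part of Creb1 and Mrtfa is 61.5% and 52.0% of TPM but 25.2% and 11.1% of expected counts.

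Crem has the most complex annotation, with 39 transcripts in 5 groups of starts separated by more than 3000 bases. The innermost group, with 7 transcripts, includes the internal promoter from which the inducible repressor ICER is known to be made. ICER lacks the activation domain and is a textbook cyclic AMP response gene. The first quantification gave this group 18.2%, 6.23% and 20.6% of Crem's expected counts in replicates 1, 2 and 3, on totals of 191, 271 and 245 counts. The second gave it 34.2%, 44.6% and 41.5% of estimated counts. The methods thus differed in the size of the share, 15.0 ± 7.68% against 40.1 ± 5.34% (SD, n = 3), and in whether replicate 2 was the lowest or the highest library.

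The largest group in the first quantification was the second from upstream, with 51.0 ± 4.22% of counts, all in the coding form Crem-230, which held 32.6 ± 1.37% of the gene's TPM. The second quantification gave that group 39.4 ± 2.14%. The outermost group had 31.2 ± 12.7% in the first and 11.9 ± 4.08% in the second. Both methods found counts in the internal group in every library, and its size was not settled by these tables.

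**Figure D5:**
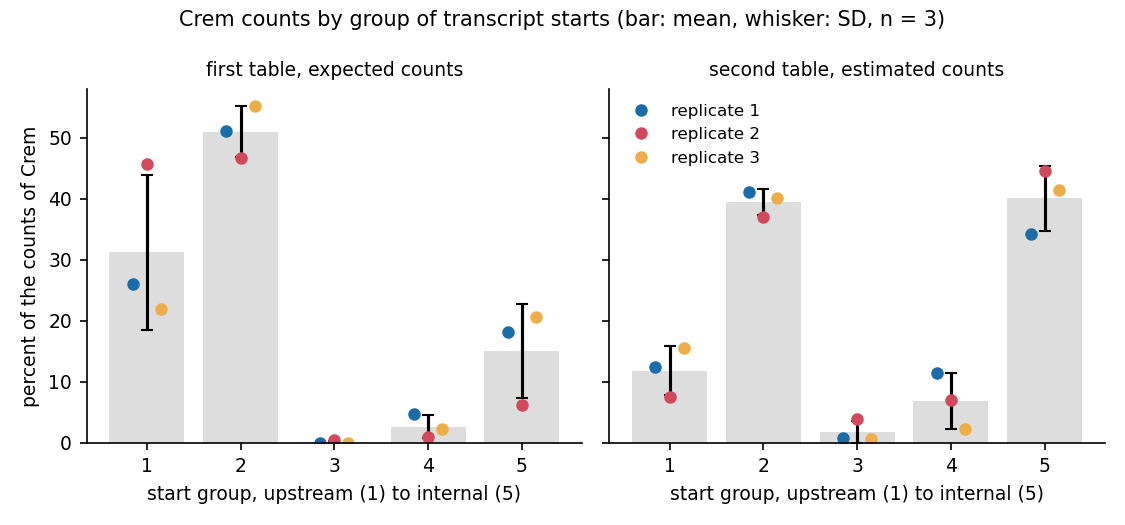
Percent of Crem's counts in each of 5 groups of transcript starts, from the most upstream (1) to the internal group (5), in the first (left) and the second quantification (right); bars are means, whiskers SD over 3 libraries, and points replicates. The internal group holds 15.0% on the left and 40.1% on the right.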

How the data were processed

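The gene tables and the first transcript tables hold expected counts (reads divided among genes by a model), TPM and credibility bounds of TPM, per the file headers, with the column names RSEM writes; the bounds, deposited by the authors, are treated as a score. The second transcript tables hold estimated counts and TPM with kallisto's column names, per the file headers. Per the labels the build is mm10; names and coordinates come from GENCODE M21, which the deposited tables match. Program versions and the strand setting are not stated in the sources used here. Rows that name no gene held 1.24%, 0.372% and 0.0641% of counts in replicates 1, 2 and 3 and were left out. The second tables held 1.37, 1.75 and 1.46 times as many counts, and in them protein-coding genes held 14.1%, 28.0% and 3.84% of TPM. Expected counts were rounded, genes with a mean of at least 10 were kept, and CPM used the TMM factors 1.07, 1.02 and 0.921 (edgeR 4.0.16, R 4.3.3); the call of deviations was tested on simulated data. Order was tested on log2(TPM + 0.1), a scale that understates differences of low genes. Mkl1 and Mkl2 were matched through RefSeq synonyms. Named genes are the 9 factors, the 2 highest and the lowest by mean TPM of each list described, the nearest gene by root mean square difference, and transcripts with at least 20% of a factor's TPM; others are named after their values were seen. A few items that this rule names are not reported here. The factors and lists were chosen with earlier results of these data known. With 1 group, no comparison between conditions was possible, and the spread is between 3 libraries.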

Additional observations from a re-analysis of the deposited data

How the results depend on the processing

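The median factor, 11.5 TPM, was 41.1 TPM when TPM was rescaled over protein-coding genes, 66.2 TPM in the second table so rescaled and 8.47 TPM over coding transcripts only; leaving out a replicate gave 10.5 to 12.8 TPM. Over coding transcripts 3 factors reached 10 TPM in place of 6. Neighbour pairs with the same sign in all libraries numbered 6 in place of 3 in the second table, and 4 to 6 without a replicate (fewer libraries have to share a sign). A shared sign is not always that of the main order. Among those 6 in the second table, Creb1 over Elk4 and Elk1 over Atf1 were negative in every library. Elk1 over Atf1 was -1.14 on the log2 scale in the second table, -0.070 over coding transcripts and -0.074 to 0.13 without a replicate. Elk3 over Crem was -0.85 in the second table and -0.28 to 0.38 without a replicate. Creb1 over Elk4 was -0.47 in the second table and -0.82 over coding transcripts. Without a replicate Creb1 over Elk4 was -0.20 to 0.21 and Crem over Srf -0.30 to 0.62. At 2-fold 0 factors deviated in any library. In replicate 1, 0 factors were below with total counts and 0 in the second table. The early targets of Elk and Srf above in replicate 3 were 5 with total counts and 4 at 2-fold. The Creb targets above in replicate 3, and those below in replicate 1, were 3 each at 2-fold. The median retained-intron share, 22.6% of TPM, was 30.0% in the second table and 5.03% of expected counts, and 20.9 to 21.8% without a replicate. Except where an alternative's construction shows it, the cause was not tested. The second table so rescaled, coding transcripts only, and the alternatives for target lists were chosen after seeing the data. No paired analysis was possible because there is 1 group. Depth limits Srf and Crem most, with 162 counts for Srf in replicate 2.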
